A study of Mus musculus with 32 samples.

Results

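The response of the neonate mouse brain 12 h after hypoxia-ischemia (HI) at postnatal day 5 (P5) was measured on 3 of the 32 two-color microarrays of the study, those titled as the 12 h time point at day 5, biological replicates 1, 2 and 3. On each array a pool of forebrain hemispheres ipsilateral to a permanent right carotid ligature, from NMRI pups returned to the mother for 1 h and then kept for 40 min under 8% oxygen, was labeled with Cy5. Right hemispheres of naive littermates of the same age, with neither ligature nor hypoxia, and collected at the same time point, were pooled and labeled with Cy3. A pool held total RNA of 6 animals matched for sex, the olfactory bulb was removed, the tissue was cut in front of the colliculus, and the day of birth counted as day 1. The naive pups were not sham-operated, so ligature, anesthesia and hypoxia cannot be told apart in any ratio. The other arrays used for comparison were HI against naive at P5 3, 6 and 24 h and at P10 12 h (3 arrays each, the same procedure, with naive pools of their own), and naive pools at P2 and P15 (4 arrays each).

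In this model, named after Rice and Vannucci, the ligature alone leaves blood flow sufficient, and the added hypoxia injures the hemisphere on the ligated side. Injured tissue is known to answer first with immediate early genes, many of them for transcription factors, whose transcription needs no new protein synthesis. Chemokines and cytokines that recruit and activate microglia and blood leukocytes follow, with reactive changes in astrocytes and vessels. The developing forebrain makes its own cholesterol, since lipoproteins do not cross the blood-brain barrier, and the enzymes of that pathway are switched together by the sterol-sensing transcription factor SREBP2.

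Signals are processed intensities in arbitrary units, and a ratio is log2 of HI over naive signal on 1 array, so 1 stands for a doubling and -1 for a halving. The share of probes well above background ran from 64.0 to 69.0% in Cy3 and from 66.0 to 70.1% in Cy5 on the 3 arrays, no probe was saturated, and ratios correlated between arrays with r of 0.653 to 0.788 across probes. Since HI pools carried Cy5 throughout and no dyes were swapped, any preference of a probe for one dye stays in its ratio. Probes entered the test with a mean signal of 100 or more in either dye. Of 11 forebrain markers 10 reached this minimum, Neurod6 and Tbr1 among them, whereas 8 of 10 hindbrain markers stayed under it. Genes just inside this minimum were Ltn1 and Mamdc4 (100.0 and 100.1), and genes just outside it were Tox2 and Mfsd6 (99.87 and 99.9).

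At 12 h, 434 of 12242 genes were induced (3.55%) and 211 were repressed (1.72%), a call being a change of over 1.5-fold with an adjusted p under 0.05 by limma over all 24 HI arrays, with Benjamini-Hochberg correction. The median log2 ratio of all genes tested was -0.03. Inductions were larger than repressions: 173 induced genes exceeded 2-fold and 46 exceeded 4-fold, whereas 12 repressed genes exceeded 2-fold and 0 exceeded 4-fold. The median fold change was 1.79 for induced and 1.61 for repressed genes. All 3 arrays gave the same direction for 432 of the 434 induced and 210 of the 211 repressed genes. Replicate 1 gave the highest ratio for 268 of 432 induced genes and replicate 2 the lowest for 234, and without replicate 1 the count of inductions was 263 (253 of them shared). From raw medians with normexp and loess the counts were 376 induced and 67 repressed, an induced share of 84.9% beside 67.3%. In bulk tissue, fewer cells of a type and less RNA per cell cannot be told apart.

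**Figure D1:**
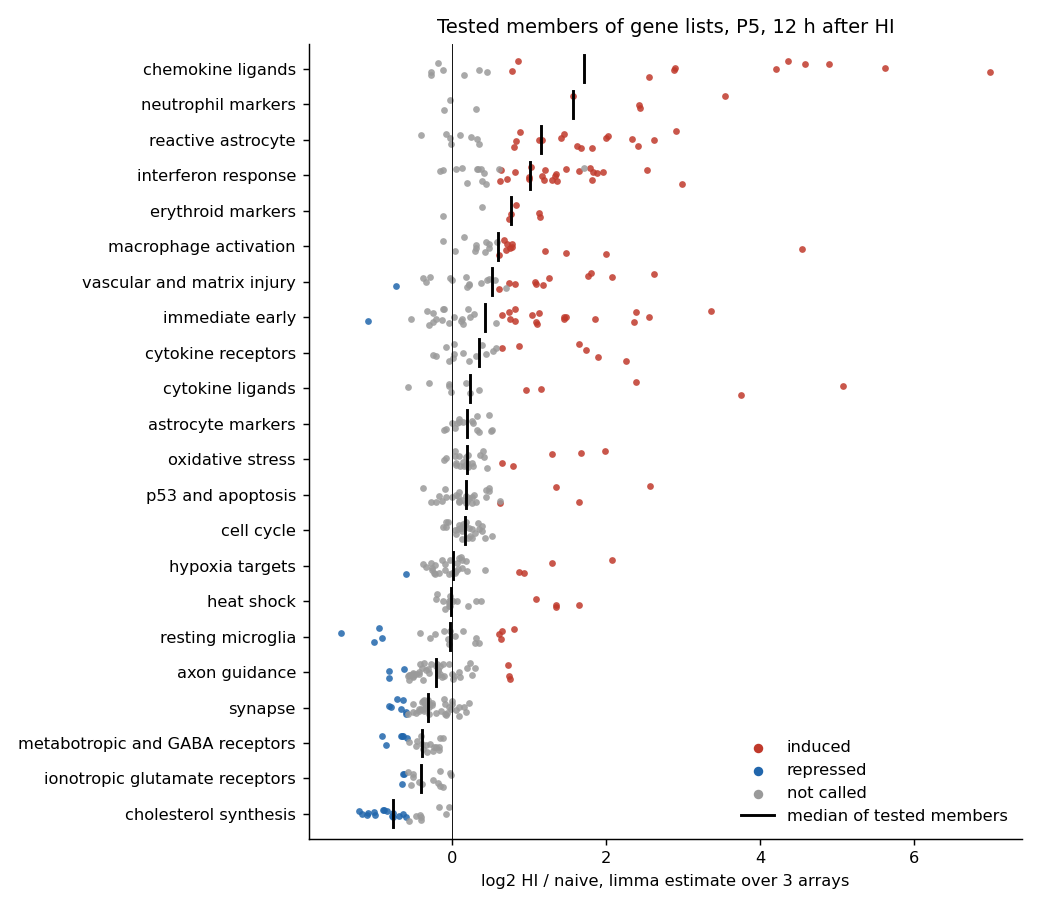
Limma estimates of the log2 ratio of HI over naive signal at P5 12 h for the tested members of 22 gene lists. Each point is 1 gene, red where induced, blue where repressed and grey where not called, and the black bar is the median of the tested members. The median is 1.70 for chemokine ligands, a value that is 0.83 without replicate 2 and below those of reactive astrocyte and interferon genes then, and -0.77 for cholesterol synthesis enzymes, and no astrocyte or cell cycle gene was called.

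The lowest group was the pathway that makes cholesterol. All 23 listed enzymes were tested, all 23 estimates were negative, 15 were repressed and none induced, beside 1.72% repressed over all genes. Their median log2 ratio was -0.77, and the medians on the 3 arrays were -0.65, -0.72 and -0.81. Between 13 and 15 of them were called under every alternative processing of the ratios and without each array in turn, except under the methods' t-test after correction, which called no gene at all.

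Sqle, squalene epoxidase, the first oxygen-requiring step of the pathway, gave naive signals of 11700, 16900 and 11200 and HI signals of 5220, 8130 and 4250. Each HI value lay below every naive value, and the fold was 2.31 lower (log2 -1.21 ± 0.16, SE, n = 3, adjusted p = 5.09e-05). Idi1, which isomerizes isopentenyl diphosphate, went from 3360, 4450 and 5670 to 1700, 2260 and 1880, again without overlap (2.27-fold lower, adjusted p = 1.51e-05). Msmo1, a sterol C4 demethylation oxidase, went from 8270, 12500 and 10000 to 3950, 6110 and 4290 (2.15-fold lower, adjusted p = 1.97e-05). These are late and middle steps, and an early one was lower too. Hmgcs1, which makes HMG-CoA, went from 30500, 44600 and 28900 to 17200, 26100 and 17100, with the 3 ratios close to each other at -0.83, -0.77 and -0.76 (1.72-fold lower, adjusted p = 0.000426).

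Further repressed enzymes of the mevalonate branch were Mvk, Mvd and Fdps, at 2.01, 2.15 and 1.70-fold lower. Those after the committed step made by Fdft1, squalene synthase (1.80-fold lower), included Cyp51, Tm7sf2, Nsdhl, Hsd17b7 and Dhcr7, at 1.53 to 2.03-fold lower, and Dhcr7 acts at the end of the pathway. Of the 8 enzymes that were not called, Acat3, Acat2, Sc5d and Ebp had adjusted p from 0.00184 to 0.00609 with estimates of -0.57 to -0.41, short of the fold limit. Lss, Ggps1, Pmvk and Lbr had estimates of -0.41, -0.17, -0.08 and -0.04 and adjusted p from 0.0882 to 0.918. Ggps1 leads to prenylation rather than sterol, and Lbr is a reductase of the nuclear envelope that shares its step with Tm7sf2. The largest drop was on replicate 3 for 12 of the 15 enzymes.

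**Figure D2:**
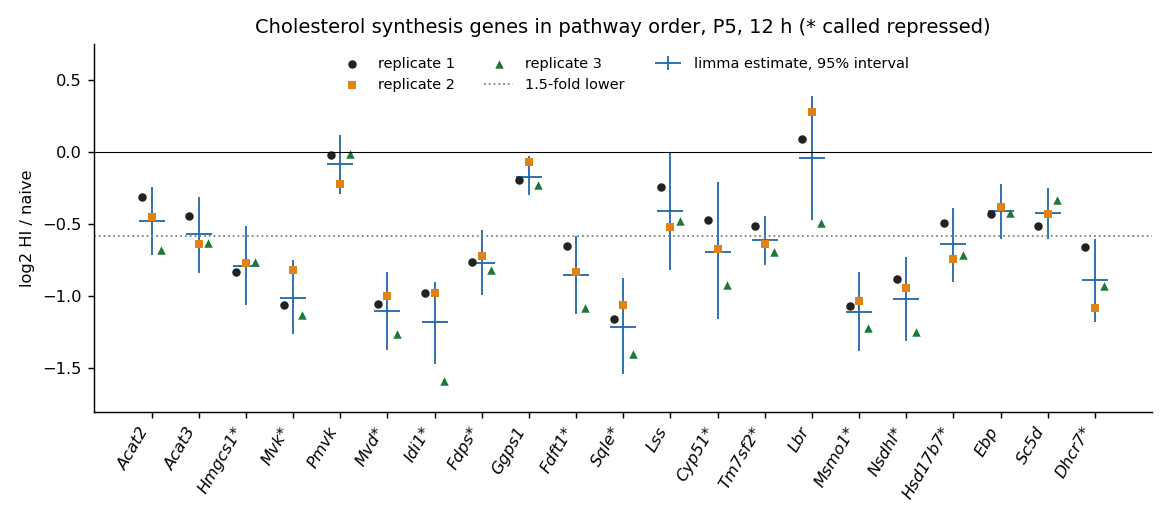
Log2 ratio of HI over naive signal at P5 12 h for 21 of the 23 cholesterol synthesis genes, ordered from acetyl-CoA to cholesterol. Markers are the 3 arrays, the blue bar is the limma estimate with its 95% interval, the dotted line is a 1.5-fold drop and an asterisk marks the repressed genes shown. Points above 0 are seen for Lbr alone.

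Regulators of sterol level moved in both directions. Of 24 tested genes of sterol regulation, uptake and fatty acid synthesis, 5 were repressed and 1 was induced (median -0.22). The shares over all genes were 1.72% and 3.55%. The repressed genes included Stard4, a sterol carrier (1.81-fold lower), Elovl6, a fatty acid elongase (1.72), Insig1, which retains SREBP in the endoplasmic reticulum (1.69), and Srebf2, which encodes SREBP2 itself (1.65). The induced gene was Abca1, which exports cholesterol from cells, with ratios of 0.64, 0.63 and 0.75 (1.59-fold, adjusted p = 0.00158). Fatty acid synthesis genes Fasn, Acly and Acaca were not called, at -0.46, -0.49 and -0.43. With normexp and loess the count of repressed genes was 3.

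To show the sequence context, promoters from 250 bases before to 50 bases after the start site were searched on both strands, as RefSeq gives them for GRCm38.p6. TCACNCCAC, letters of the sterol element, was found in 1 of the 10 repressed enzymes that had a promoter in the table, Hmgcs1, and in 1.24% of 32851 promoters. The stretch shown has these letters in capitals and lies at chr13:119690169-119690267 on the plus strand, before the start site.

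Hmgcs1: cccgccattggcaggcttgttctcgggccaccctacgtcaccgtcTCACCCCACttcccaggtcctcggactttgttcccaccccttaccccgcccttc

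Among the largest inductions were chemokines, small secreted proteins that draw leukocytes along a gradient. Of 33 listed ligands 18 reached the signal minimum, and 11 of these were induced and none repressed, beside 3.55% induced over all genes. Their median log2 ratio was 1.70, and it was 0.83 without replicate 2, when reactive astrocyte and interferon genes had medians of 1.36 and 1.15, and 0.78 over 31 ligands with no signal filter. Members that passed the minimum only through the HI channel had to differ, so the count describes those that passed and not all 33. These were 7 of the 18, 6 of them induced, and of the other 11 ligands 5 were induced (median 0.34).

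Cxcl10, a ligand of CXCR3 that interferon induces, had naive signals of 5.67, 17.7 and 4.3 and HI signals of 1030, 1290 and 664. The groups lay far apart (adjusted p = 9.70e-08), but the naive signal was well above background on 1 of the 3 arrays, so the log2 estimate of 6.99 is not an exact size. Ccl4, an attractant of monocytes and T cells, had naive signals of 16.4, 18.4 and 28.8 and HI signals of 1260, 752 and 1110 (adjusted p = 1.59e-08), with a log2 estimate of 5.63 from a naive signal well above background on 2 arrays. Ccl2, the main attractant of monocytes, went from 54.8, 95.5 and 85.8 to 1410, 1400 and 1970 (20.6-fold, adjusted p = 2.99e-09). Ccl7 and Ccl12, which like Ccl2 act on CCR2, were at log2 4.58 and 4.21, with naive Ccl7 well above background on 2 arrays. Cxcl1, an attractant of neutrophils, was not well above background on any naive array and reached 292, 258 and 251 after HI, at least 22.9-fold higher.

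Ccl9, Ccl6 and Ccl3 followed at 7.45, 5.88 and 7.37-fold, the last from 2 arrays since its spot was left out on replicate 1. Ccl17 and the platelet factor Pf4 were at 1.81 and 1.72-fold. The 7 chemokines tested and not called, among them the constitutive neuronal and stromal ligands Cx3cl1, Cxcl12 and Cxcl14, had estimates from -0.28 to 0.45. Replicate 2 gave the lowest ratio for 7 of the 10 induced chemokines measured on all arrays.

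Among cytokine ligands 5 of 13 tested were induced and none repressed (median 0.23), beside 3.55% induced over all genes. Of the 13, 2 passed the signal minimum only through the HI channel, both induced. Of the other 11 ligands 3 were induced (median 0.17). Il6, an inflammatory cytokine that signals through gp130, was not well above background on any naive array, reached 144, 86.7 and 130 after HI, and was at least 14.9-fold higher (adjusted p = 5.21e-05). Gdf15, a stress hormone of the TGF-beta family, had ratios of 5.40, 2.83 and 3.01, with replicate 1 apart from the other two and a naive signal well above background on 1 array. Spp1, osteopontin, had ratios of 3.11, 1.19 and 2.84. Csf1, the growth factor of microglia, and Cntf, a glial neurotrophic factor, were induced 2.22 and 1.93-fold. Il18 was at -0.58 with an adjusted p of 0.000665, just short of the fold limit. Il1a, Il1b, Tnf and Il10 were under the signal minimum in both channels and were not tested. Of these, Il1b gave HI signals of 101, 69.6 and 55.5 and was at least 9.27-fold above naive pools, where it was not well above background.

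Of 20 tested receptors of cytokines and chemokines, 6 were induced and none repressed (median 0.35), beside 3.55% induced over all genes. Of the 20, 2 passed the signal minimum only through the HI channel, both induced. Of the other 18 receptors 4 were induced (median 0.26). Tnfrsf12a, the receptor of TWEAK, went from 145, 244 and 246 to 767, 1020 and 1190 without overlap (4.75-fold, adjusted p = 4.51e-07). Il1r1, Osmr and Csf2rb were induced 3.71, 3.34 and 3.13-fold, and Il6ra and Cx3cr1, the fractalkine receptor of microglia, 1.83 and 1.55-fold. The receptors of the interferons were not called, with Ifnar1 at 0.01, Ifngr1 at 0.21 and Ifnar2 at 0.39.

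**Figure D3:**
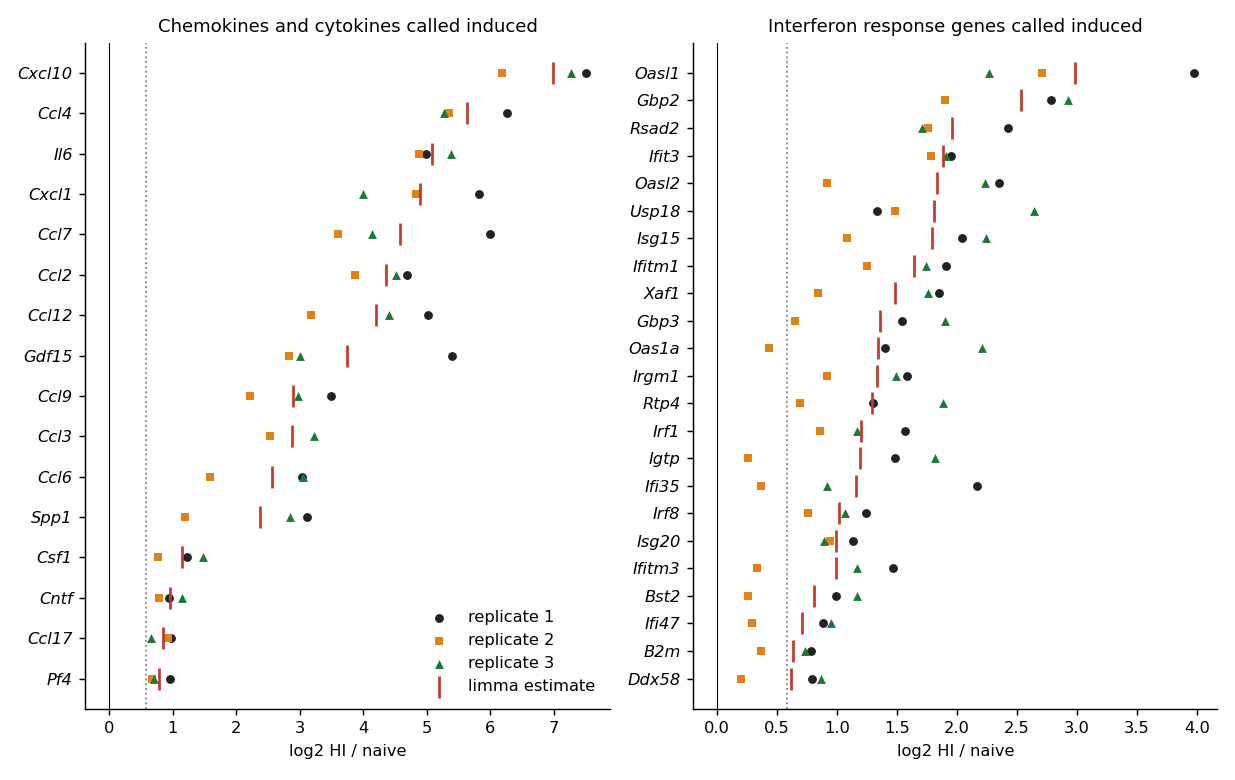
Log2 ratio of HI over naive signal on each of the 3 arrays at P5 12 h, for chemokines and cytokines called induced (left) and interferon response genes called induced (right). Red bars are limma estimates and the dotted line is a 1.5-fold rise. Naive signal was not well above background on any array for Cxcl1 and Il6, on 2 of 3 for Cxcl10 and Gdf15, and on 1 for Ccl4, Ccl7 and the interferon genes Oasl1, Rsad2 and Ifi35, so the heights and the order of these genes are not exact. Replicate 2 (orange squares) lies lowest for 19 of the 23 interferon genes.

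Letters of the NF-kB element, GGANTTTCC, occurred in 2 of 8 promoters of induced chemokines (Cxcl1 and Cxcl10), in 2 of 5 of induced cytokines (Csf1 and Il6), in 4.57% of 350 promoters of all induced genes and in 1.55% of 9748 promoters of genes tested. The stretches shown lie before the start site, on the strand of the gene, at chr5:90891130-90891228 (plus) and chr5:92348994-92349092 (minus), with the letters in capitals in either orientation.

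Cxcl1: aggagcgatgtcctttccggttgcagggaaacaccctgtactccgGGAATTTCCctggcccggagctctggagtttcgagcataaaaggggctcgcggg
Cxcl10: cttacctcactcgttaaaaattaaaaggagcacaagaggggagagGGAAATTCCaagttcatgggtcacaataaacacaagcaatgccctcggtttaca

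Genes of the interferon response, antiviral effectors and their regulators, formed the list with the most induced members. Of 51 listed, 36 were tested, 23 were induced and none repressed, and the median was 1.01 beside -0.03 over all genes. The share induced over all genes was 3.55%. Of the 36, 13 passed the signal minimum only through the HI channel and so had to be high there, 11 of them induced, and of the other 23 genes 12 were induced (median 0.62). With no signal filter 20 of 49 were induced. Gbp2, a guanylate-binding GTPase, went from 45.3, 101 and 53.3 to 311, 378 and 403 (5.79-fold, adjusted p = 2.42e-06). Isg15, a ubiquitin-like modifier, went from 184, 559 and 343 to 758, 1180 and 1620, with ratios of 2.04, 1.08 and 2.24 (3.45-fold, adjusted p = 0.00212). Ifit3, which binds foreign RNA complexes, had ratios of 1.95, 1.78 and 1.91, the most even of the group. In each of these 3 genes the naive signal was highest on replicate 2, and the groups did not overlap.

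Genes of the Oas family and an RNA sensor were induced, with Oasl1, Oasl2 and Oas1a at 7.91, 3.57 and 2.54-fold and Ddx58, which encodes RIG-I, at 1.53-fold. So were the transcription factors Irf1 and Irf8 (2.30 and 2.03-fold), the immunity-related GTPases Irgm1, Igtp and Ifi47 (2.51, 2.28 and 1.63-fold), and Usp18, which removes Isg15 (3.52-fold). B2m, the light chain of MHC class I, was induced 1.55-fold, whereas the heavy chains H2-K1 and H2-D1 were not called at 0.37 and 0.32. Stat2 and Irf9, partners in the factor that reads type I interferon, were not called at -0.16 and 0.38. Probes of the Oas, Ifi200 and Gbp families may read more than 1 family member. Without replicate 1 the count of induced interferon genes was 12 and without replicate 3 it was 15.

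The interferon element AAANNGAAA occurred in 16 of 21 promoters of the induced interferon genes (76.2%), in 9.0% of promoters of genes tested and in 10.6% of all promoters. The list was drawn from known interferon targets, and the share is a description of the letters. The stretches shown, from the genes named above, lie before the start site on the strand of the gene, with the letters in capitals in either orientation. They lie at chr4:156200830-156200940 (minus), chr19:34583328-34583460 (plus) and chr3:142620559-142620657 (plus). In Isg15 the 3 matches overlap and form 1 run.

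Isg15: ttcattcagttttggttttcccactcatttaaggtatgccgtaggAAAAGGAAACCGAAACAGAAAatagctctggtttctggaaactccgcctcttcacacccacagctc
Ifit3: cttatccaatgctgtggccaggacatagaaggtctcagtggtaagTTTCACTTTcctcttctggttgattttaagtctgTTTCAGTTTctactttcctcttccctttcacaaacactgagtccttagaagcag
Gbp2: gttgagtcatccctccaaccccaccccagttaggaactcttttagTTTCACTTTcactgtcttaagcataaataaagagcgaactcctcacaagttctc

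Part of the immediate early genes were still raised. Of 36 tested, 17 were induced and 1 was repressed (median 0.42). Of the 36, 6 passed the minimum only through the HI channel, 5 of them induced. Of the other 30 genes 12 were induced and 1 was repressed (median 0.17). The shares over all genes were 3.55% induced and 1.72% repressed. Fos, a subunit of AP-1, went from 61.8, 122 and 57.4 to 745, 821 and 754 (10.2-fold, adjusted p = 5.20e-08). Atf3 and Maff, stress-induced basic leucine zipper factors, were at 5.87 and 5.14-fold, and the C/EBP factors Cebpd and Cebpb at 5.24 and 2.79-fold. Lower inductions were seen for Socs3, a feedback inhibitor of JAK-STAT signaling (2.73-fold), Jun (2.06), Egr1 (1.75) and Nr4a1 (1.55), the last with a ratio of 0.11 on replicate 2. Egr4 alone was repressed, from 631, 1110 and 472 to 312, 416 and 259 (2.14-fold lower, adjusted p = 0.00416). Genes that follow neuronal activity went different ways. Npas4, a transcription factor of neurons, went from 449, 686 and 397 to 1290, 1120 and 861 without overlap (2.17-fold, adjusted p = 0.00965), whereas Arc, Bdnf, Homer1 and Nr4a2 had estimates of -0.31, -0.25, -0.33 and -0.54 and were not called. Without replicate 1 the induced count was 10, and without replicate 3 it was 11.

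Most genes of the stress lists were not called, and their induced counts stand beside 3.55% over all genes. Of 19 tested heat shock genes, 4 were induced and none repressed (median -0.02): Hspb1 (3.14-fold), Hspa1a (2.56), Hspb8 (2.53) and Bag3 (2.11), 2 small heat shock proteins with the inducible Hsp70 and its co-chaperone. The constitutive chaperones Hspa8, Hsp90aa1 and Hsp90ab1 had estimates of -0.12, -0.03 and -0.03. The heat shock element letters GAANNTTC were found in all 4 induced promoters and in 6.86% of promoters of genes tested. The Hspa1a stretch with these letters in capitals lies at chr17:34972208-34972305 on the minus strand, before the start site.

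Hspa1a: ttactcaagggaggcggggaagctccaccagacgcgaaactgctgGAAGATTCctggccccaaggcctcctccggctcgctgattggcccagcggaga

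Of 32 tested targets of hypoxia, 4 were induced and 1 repressed, beside 3.55% and 1.72% over all genes (median 0.01). Of the 32, 2 passed the signal minimum only through the HI channel, both induced. Of the other 30 targets 2 were induced and 1 was repressed (median -0.02). Slc2a1, the glucose transporter of the blood-brain barrier, Adm, the vasodilator adrenomedullin, and Angptl4, an inhibitor of lipoprotein lipase, were among the induced, at 1.83, 1.91 and 2.44-fold, and P4ha1, a collagen prolyl hydroxylase, was 1.52-fold lower. The glycolytic genes Ldha, Aldoa, Pgam1 and Pdk1 were not called, at -0.24, -0.27, -0.10 and 0.03. Without replicate 1 the count of inductions was 1. Of 26 genes of oxidative stress, 5 were induced. The metallothioneins Mt1 and Mt2, which bind zinc, rose from naive signals of 11500 to 15600 and 6760 to 10700 to HI signals of 35600 to 53600 and 25400 to 39600 (3.19 and 3.95-fold). Hmox1, heme oxygenase and itself a target of NRF2, rose 2.47-fold and the factor Nfe2l2 1.73-fold. Other NRF2 targets, Nqo1, Gclm and Txnrd1, stood at 0.14, 0.04 and 0.17. In the unfolded protein list 2 of 24 were induced, Ppp1r15a (1.71-fold) and Atf5 (1.51-fold), with Ddit3 at 0.02. In the list of p53 and cell death genes 4 of 31 were induced, the death receptor Fas (5.93-fold), the Bcl2 relatives Bcl2a1d and Pmaip1 (3.13 and 2.55-fold) and Casp8 (1.54-fold), while Bax and Bbc3 stood at -0.14 and -0.09. Of the 31 p53 and cell death genes, 4 passed the minimum only through the HI channel, 2 of them induced. Of the other 27 genes of that list 2 were induced (median 0.12). None of the 27 tested cell cycle genes was called (median 0.16).

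Reactive glial genes were induced, and astrocyte markers were not called. None of the 16 tested astrocyte markers was called (median 0.20), with Slc1a3, Gja1 and S100b at 0.32, 0.08 and -0.11. Of 24 tested genes of reactive astrocytes, 16 were induced and none repressed (median 1.15), beside 3.55% induced over all genes. Of the 24, 3 passed the minimum only through the HI channel, 3 of them induced, and of the other 21 genes 13 were induced (median 0.88). The count of 16 was 12 without replicate 1 or without replicate 3. Timp1, an inhibitor of matrix metalloproteases, went from 159, 202 and 140 to 1050, 891 and 1110 (6.14-fold, adjusted p = 3.44e-08). Cd14, the co-receptor of TLR4, rose 7.53-fold, Lgals3, galectin-3, 5.06-fold, Vim, vimentin, 3.08-fold, and Lcn2, lipocalin-2, 3.18-fold. Gfap, the intermediate filament of astrocytes, had ratios of 1.29, 0.69 and 0.67 (1.84-fold, adjusted p = 0.0362). The complement gene C3 was at -0.02. Several of these genes, Cd14, Lgals3 and Srgn among them, are also made by microglia and blood myeloid cells.

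Markers of resting microglia went both ways, with 4 of 20 induced and 4 repressed, beside 3.55% and 1.72% over all genes. P2ry12, the ADP receptor by which processes of microglia sense injury, was the most repressed of all genes, from 240, 530 and 517 to 98.2, 229 and 144 (2.73-fold lower, adjusted p = 1.59e-05). P2ry13, Slc2a5 and Selplg were 2.03, 1.93 and 1.89-fold lower. Cx3cr1, Fcrls, P2ry6 and Mertk were 1.55, 1.75, 1.54 and 1.52-fold higher, and none of these 4 was called without replicate 1. Csf1r, Aif1 and Trem2, carried by microglia in general, were not called at -0.04, -0.11 and -0.03. With normexp and loess the counts were 2 and 2. In the list of macrophage activation 11 of 22 were induced and none repressed (median 0.59), among them the inhibitory receptor Lilrb4a (ratios 6.03, 2.92 and 4.70, naive signal well above background on 1 array), Tlr2 (3.99-fold) and the complement subunits C1qa, C1qb and C1qc (1.52, 1.61 and 1.68-fold). The count of 11, beside 3.55% induced over all genes, was 7 without replicate 1 or without replicate 3. Of the 22, 2 passed the minimum only through the HI channel, both induced. Of the other 20 genes 9 were induced (median 0.53).

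Markers of blood cells moved with HI and their part in the other results was not tested. The induced counts in this paragraph stand beside 3.55% over all genes. Of 18 listed neutrophil markers 7 were tested and 4 were induced: S100a8, S100a9, Stfa3 and Stfa2l1. Of these 4, 3 passed the minimum only through the HI channel, S100a8 among them, and the list median of 1.57 was 0.34 with no signal filter, when 5 of 17 were induced. S100a8 went from 39.8, 42.4 and 184 to 284, 263 and 670 (5.44-fold, adjusted p = 0.00335). The defining neutrophil genes Mpo, Ltf, Ngp, Cxcr2 and Mmp8 were under the minimum, and Elane and Camp stood at -0.03 and -0.11. The summed signal of the list was 30800 to 52800 in naive and 30900 to 93600 in HI channels. Of 13 erythroid genes 7 were tested and 5 induced, Hba-a1, Hba-a2, Hbb-bs, Hbb-bt and Alas2 at 1.67 to 2.21-fold, a count that was 1 without replicate 1. Their ratios were highest on replicate 1 and lowest on replicate 3 for all 5, as for Hbb-bs at 1.75, 1.27 and 0.34, and summed signal was 66600 to 213000 in naive and 194000 to 284000 in HI channels. The globin pairs are near-identical and their probes may read each other. Of 6 monocyte genes tested S100a4 was induced (2.68-fold), with Ccr2 and Plac8 under the minimum. Of 14 choroid plexus genes Aqp1 and Steap1 were induced (2.18 and 1.69-fold) and Ttr was at 0.35. Of these 14, 1 passed the minimum only through the HI channel, and it was induced. Of the other 13 genes 1 was induced (median 0.12). The choroid plexus count was 1 with no signal filter, with normexp and loess, and without each array in turn.

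The counts of vascular and oligodendrocyte genes that follow stand beside 3.55% induced and 1.72% repressed over all genes. Endothelial identity genes were called for 2 of 20 members, Ly6a and Ly6c1 (3.80 and 1.93-fold), and Cldn5, Pecam1 and Kdr stood at 0.23, 0.28 and 0.07. Of 26 tested genes of vascular and matrix injury, 11 were induced and 1 was repressed (median 0.51). The induced count was 6 without replicate 1. Of the 26, 4 passed the signal minimum only through the HI channel, 3 of them induced. Of the other 22 genes 8 were induced and 1 was repressed (median 0.41). Plaur, the urokinase receptor, Ccn1, a matricellular protein, Adamts1, a protease of matrix proteoglycans, and Pdpn, podoplanin, rose 3.47, 3.39, 2.38 and 2.27-fold. Itgb3, an integrin subunit, was 1.66-fold lower. None of the 14 tested genes of oligodendrocyte precursors and 1 of 13 myelin genes was called, Mal, with ratios of 0.83, 0.74 and 0.63.

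Lists of neuronal genes had medians below 0 and calls in the repressed direction, all under 2-fold except Tubb3. Their repressed counts stand beside 1.72% over all genes. Glutamate-gated channels had a median of -0.41, and all 16 tested estimates were negative. Gria1 and Gria3, AMPA receptor subunits, and Grin3a, an NMDA receptor subunit, were repressed by 1.58, 1.55 and 1.57-fold. The list's count was 1 with the dye bias subtracted or without replicate 1, and 0 with normexp and loess. Metabotropic glutamate and GABA receptors had a median of -0.39, and all 22 estimates were negative with 6 repressed. Gabrd, the delta subunit of extrasynaptic GABA-A receptors, went from 707, 1530 and 1150 to 404, 807 and 566 (1.89-fold lower, adjusted p = 8.63e-06), and Grm7, a presynaptic metabotropic receptor, was 1.83-fold lower. Grm8, Gabra5, Gabra4 and Gabra2 followed at 1.59, 1.58, 1.55 and 1.51-fold, and the list's count was 3 with normexp and loess.

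Of 45 tested synapse genes 7 were repressed and none induced (median -0.32). Syt1, the calcium sensor of vesicle release, went from 25700, 28600 and 12400 to 14800, 18200 and 7570, with ratios of -0.80, -0.65 and -0.71 (1.65-fold lower, adjusted p = 3.61e-05). Nrxn3, a presynaptic adhesion molecule, Camk2a, a postsynaptic kinase, and Slc17a7, the vesicular glutamate transporter of cortical neurons, were 1.78, 1.75 and 1.51-fold lower. Slc17a6, Slc32a1, Gad1 and Gad2 stood at 0.00, -0.07, 0.02 and 0.07. The count of repressed synapse genes was 3 with the dye bias subtracted and 4 with normexp and loess or without replicate 3. Of 24 markers of projection neurons Tubb3, neuronal beta-tubulin, alone was repressed, from 44300, 60800 and 50600 to 23600, 31500 and 22500 (2.01-fold lower, adjusted p = 1.42e-05), and Rbfox3 was at -0.13. Of 20 interneuron and striatal genes 3 were repressed, among them Ppp1r1b and Drd1 (1.53 and 1.52-fold), which mark striatal projection neurons, while Sst, Npy and Penk stood at 0.01, -0.02 and -0.26. The count of 3 was 1 without replicate 1, 1 with the dye bias subtracted and 0 with normexp and loess.

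Among 45 tested axon guidance genes 3 were repressed and 3 induced (median -0.22). Sema3e, Robo2 (2 arrays) and Plxna3 were 1.78, 1.76 and 1.55-fold lower, and the count of repressed genes was 1 without replicate 1 or with normexp and loess, 5 with the dye bias subtracted and 6 without replicate 2. Sema6d, Ephb3 and Epha5 had nearly the same ratios on each array, 0.42, 0.63 and 1.11 for Sema6d and 0.46, 0.63 and 1.17 for Epha5, and none of the 3 was called with the dye bias subtracted, with no signal filter, or without replicate 2 or 3. A second probe of Epha5 stood at -0.35, so the direction of that gene is not settled.

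The 12 h response was set beside the other time points at P5. The comparison with 3 h was chosen after the data were seen, since both planned ones gave few calls. Against 3 h, 97 of 11858 genes were higher at 12 h (0.818%) and 159 were lower (1.34%), by limma on the difference. With the replicate number as a block, since the arrays of 1 number share a slide, 150 were higher and 207 lower. The count of 256 in both directions was 127 without a signal filter and 418 when the 6 arrays were fitted alone. It was 148 and 131 without replicates 1 and 3 of the 12 h arrays, and 118 and 143 without those of the 3 h arrays. Of the genes called at 12 h, 57 induced and 0 repressed genes were higher than at 3 h, and 15 induced and 51 repressed genes were lower. The call and the difference use the same 12 h ratios. This favors induced genes being higher and repressed genes being lower, so the split is only a description. The median of the cholesterol synthesis list was 0.06, -0.28, -0.77 and -0.51 in the order of time, and 14 of the 23 enzymes were lower at 12 h than at 3 h by the test of the difference. Insig1 passed from 0.86 at 3 h to -0.75 at 12 h (difference -1.61 ± 0.21, adjusted p = 0.000497).

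Of 36 immediate early genes 18 were lower at 12 h than at 3 h. The list had medians of 1.69, 0.83, 0.42 and 0.09 from 3 h to 24 h, and of 1.69, 0.83, 0.26 and 0.06 over the 32 that passed the minimum at all 4 times. Fosb went from 3.84 to 1.1 and Fos from 5.67 to 3.36 (adjusted p = 0.000159 and 0.000937). Interferon genes had medians of -0.10 at 3 h and 0.28, 1.01 and 0.69 at 6, 12 and 24 h, and 6 of the 21 tested at both times were higher at 12 h. These medians are over the 36 genes that passed the minimum at 12 h, which favors that time, and over the 21 that passed at all 4 times they were -0.07, 0.17, 0.63 and 0.32. Isg15 went from -0.19 to 1.79 and Gbp3 from -0.16 to 1.36 (adjusted p = 0.0402 and 0.00738). Reactive astrocyte genes had medians of 0.32, 0.91, 1.15 and 0.99 in the order of time, with 8 of 22 higher at 12 h. Among chemokines Ccl12 had the largest difference, from 0.88 to 4.21 (adjusted p = 0.0044). The chemokine medians were 0.67, 1.18, 1.70 and 1.28, over the 18 ligands that passed the minimum at 12 h and again over the 16 that passed at all 4 times.

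Against 6 h and 24 h limma called 0 genes in either direction. At an unadjusted p under 0.05 there were 948 and 539 genes, of which 43 higher and 53 lower, and 50 higher and 26 lower, also passed the fold limit. The 12 h and 6 h arrays deviated together by slide, and with the replicate block 3 genes were lower at 12 h than at 6 h: Gabrd (-0.71, adjusted p = 0.0186), Msantd1 (-0.62, 0.0186) and Chst8 (-0.65, 0.049). With slide as a random block 15 genes differed from 6 h, Idi1 among them (-0.87), and 3 from 24 h, Dbp, Snhg12 and Trem2. The lists' medians above thus differ between 6, 12 and 24 h by amounts that the main tests of single genes, without a block, did not separate. With a block for the slide few genes were separated, the list members Gabrd and Idi1 against 6 h among them.

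**Figure D4:**
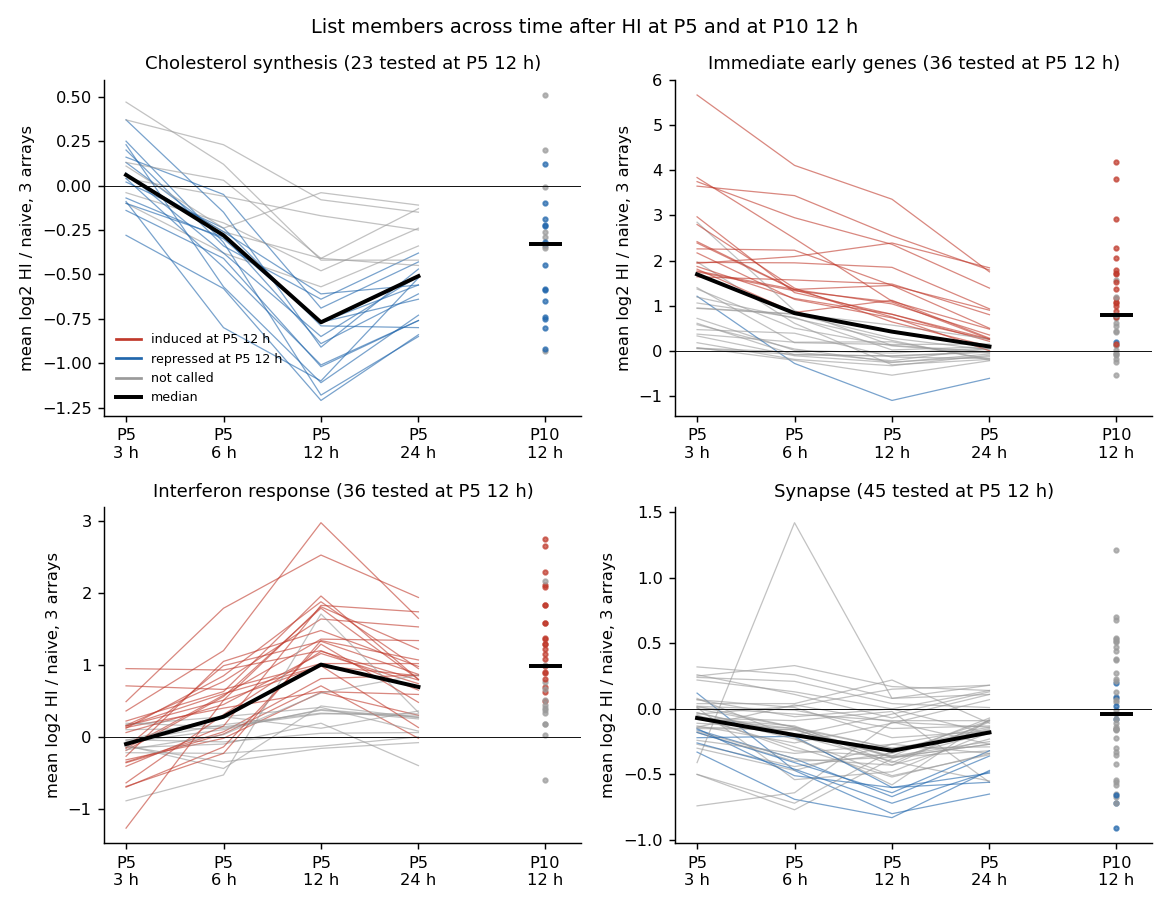
Mean log2 ratio of HI over naive signal of list members at P5 3, 6, 12 and 24 h (lines) and P10 12 h (points), 3 arrays per group. Lines are colored by the call at P5 12 h and the black line or bar is the median of the members tested at P5 12 h. The cholesterol synthesis median is lowest at 12 h (-0.77), and immediate early genes decline from 3 h (1.69) to 24 h (0.09).

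The 12 h response at P5 was then set beside that at P10. Limma on the difference called 61 of 11643 genes higher at P5 (0.524%) and 166 lower (1.43%). The count of 227 in both directions depended on single arrays and settings. It was 2 without P5 replicate 1, 18 without P5 replicate 2, 71, 433 and 16 without P10 replicates 1, 2 and 3, and 0 when the 6 arrays were fitted alone or without a signal filter. P5 and P10 lie on different slides, so age and slide cannot be told apart. Of the genes called at P5 12 h, 10 induced genes were higher at P5 and 5 lower, and 11 repressed genes were lower at P5. Here too the call and the difference share the P5 12 h ratios, so the directions are partly set by the call.

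Among the sterol enzymes Hmgcs1 differed, at -0.79 at P5 and 0.12 at P10 (difference -0.91 ± 0.18, adjusted p = 0.0158), as did Pmvk, a kinase of the mevalonate branch, at -0.08 and 0.51. The list median was -0.77 at P5 and -0.33 at P10. The presynaptic gene Syt1 (-0.72 and 0.02) was lower at P5 than at P10 (adjusted p = 0.0090), and the synapse medians were -0.32 and -0.04. Atf3, Maff, Ccl3 and Mt2 were induced at both ages and less at P5, with differences of -1.63, -1.44, -1.30 and -1.26. Egr4 was -1.1 at P5 and 0.19 at P10. Genes higher at P5 were the myeloid lectin receptor Clec4n (1.42 and 0.27), Ifi27l2a, an interferon-induced gene (1.39 and 0.30), Cd209f (1.06 and 0.03), Pf4 (0.78 and 0.12) and Mal (0.73 and 0.05). The interferon medians were 1.01 at P5 and 0.99 at P10, and no interferon list member differed by test. Both medians are over the 36 genes that passed the minimum at P5 12 h, 13 of them only through the HI channel, which favors P5.

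**Figure D5:**
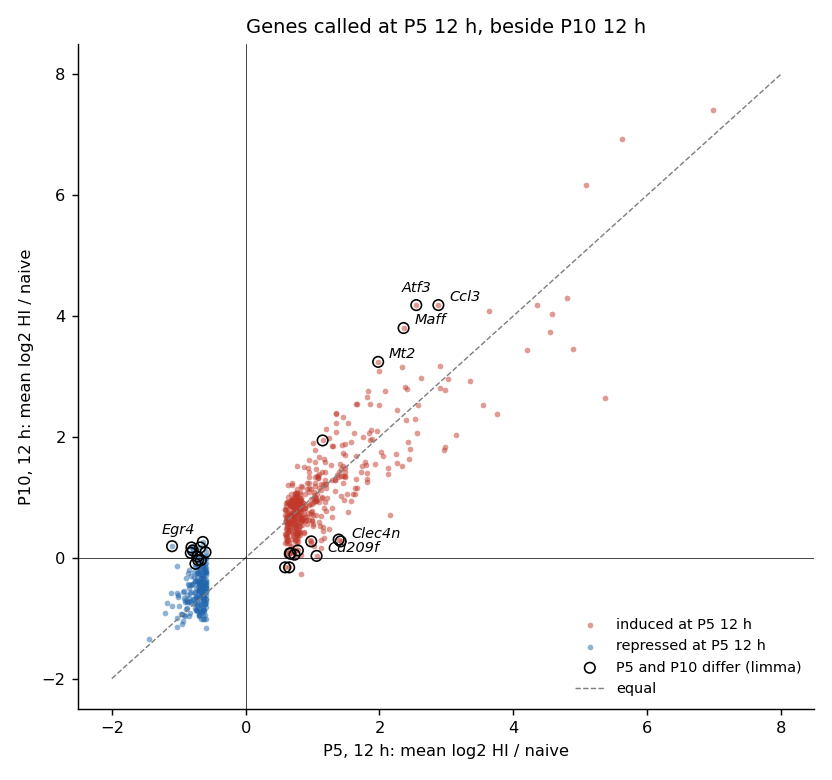
Mean log2 ratio of HI over naive signal at P5 12 h (horizontal) and P10 12 h (vertical) for the 645 genes called at P5 12 h, red where induced and blue where repressed at P5. The gap around 0 on the horizontal axis comes from the call itself. Black circles mark the 26 genes whose P5 and P10 ratios differed by limma, and the dashed line is equality.

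The called genes were then read on arrays that share no sample with the 12 h ratios, those of naive pools at P2 and P15. Of 11958 genes tested in both, 1491 were higher at P15 (12.5%) and 1606 lower (13.4%), by over 2-fold with an adjusted p under 0.001. Of 362 induced genes tested there, 92 were higher at P15 (25.4%) and 43 lower (11.9%). Of 206 repressed genes, 81 were higher (39.3%) and 23 lower (11.2%), with a median difference of 0.54 beside 0.00 for all genes. Repressed genes that increase steeply with age in naive brain included Gabrd (3.78, log2 P15 minus P2), Egr4 (3.12), Camk2a (2.89) and P2ry12 (2.55). Of the 23 cholesterol enzymes 0 were higher at P15 and 3 lower, about the share of all genes, with Sqle, Fdps and Cyp51 at -1.27, -1.45 and -1.59, and the list median was -0.59. Tubb3, at -1.16, and Tubb2b, at -2.24, also decline with age. Resting microglia markers were higher at P15 for 15 of 20 and interferon genes for 15 of 28.

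Of the 15 most induced genes, 10 were the chemokines, cytokines, Fos and Lilrb4a described above, and the others were Phox2a, Saa3, Ifi202b, Stfa2l1 and Cstdc4. Phox2a, a homeobox factor of noradrenergic and visceral motor neurons of the hindbrain, was not well above background on any naive array and gave HI signals of 205, 122 and 97.0, at least 17.0-fold higher (adjusted p = 6.01e-08). Saa3, an acute phase apolipoprotein, was likewise not well above background in naive pools and was at least 17.7-fold higher. Ifi202b, an interferon-inducible DNA-binding protein, had ratios of 4.08, 3.25 and 3.56, and Stfa2l1 and Cstdc4, stefin protease inhibitors of myeloid cells from a family of close copies, had estimates of 3.55 and 3.15 on the log2 scale with naive signals well above background on 1 array. Among the 15 most repressed, Galntl6, a glycosyltransferase relative, was 2.04-fold lower, and 1600014C23Rik, with ratios of -0.40, -1.08 and -1.48, varied most between arrays.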

How the data were processed

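Two-color arrays were scanned and extracted by the authors with Agilent Feature Extraction 10.5.1.1, per the file headers, with background subtraction, spatial detrending, lowess dye normalization and no scaling between arrays. The deposited values used were processed signal intensities of Cy5 and Cy3 and, as an alternative, the authors' log10 ratios of Cy5 over Cy3 in the deposited series table.

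From these, log2 of Cy5 over Cy3 was taken per spot after control spots and flagged outliers were left out, and spots of a probe were averaged. Probes with a mean processed signal of at least 100 in 1 dye were tested against 0 with limma 3.58.1 in R 4.3.3, over 24 HI arrays in 8 groups, with Benjamini-Hochberg correction, and called at over 1.5-fold with an adjusted p under 0.05. A gene was read from its brightest tested probe, and several probes of a gene were compared for direction. Of 39429 probes, 27427 were named by RefSeq (20832 genes, GRCm38.p6) and 12002 were not. Bounds written "at least" were taken against the lowest signal well above background. Naive P15 and P2 pools were compared on the Cy3 signals of 8 arrays, scaled per array, at an adjusted p under 0.001 and 2-fold. Each of these arrays held pools of the same age, in dye-swapped pairs, and their Cy5 signals entered this comparison only in an alternative.

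Each HI array held pools of its own, so n counts pools there. The naive P2 and P15 pools each lay on a pair of arrays, and each entered the main comparison through its Cy3 signal alone. The number of arrays limits the precision. The 4 time points of a replicate number at P5 shared a slide, and same-slide correlations of deviations from group means were 0.433, 0.206 and 0.459 between 12 h and 6 h, 0.331, 0.0525 and 0.402 with 3 h, and 0.219, 0.0716 and 0.124 with 24 h. The replicate block therefore stands for the slide within an age.

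Genes were named by rule: the 15 most induced and 15 most repressed with 1 direction on all arrays, the called members of each list and up to 4 others of the highest naive signal, and per contrast the 8 largest differences each way among genes called in both. A few genes that the rule chose are not reported here. Some further list members are given as values, chosen after they were seen. The members and lists were chosen with earlier results of these data known. Alternatives were the signal filter, the arrays fitted, slide and replicate blocks, subtraction of the dye bias seen on the naive arrays, the deposited ratio table, the probe of a gene, the t-test of the methods, each array left out, and normexp (offset 50) with loess, run on median signals since these were the raw signals at hand. Tables were made in Python 3.11.15, and the fits were tested on simulated data.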

Additional observations from a re-analysis of the deposited data

Results flagged for a closer look

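The log2 ratio of HI over naive signal differed between 12 h and 3 h at P5 for 256 genes by limma on the difference, and between P5 12 h and P10 12 h for 227 genes. Of the genes named by rule, 64 that differed from 3 h and 18 that differed from P10 are given. Differences are given as P5 12 h minus the other group, on the log2 scale.

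Against 3 h, immediate early and related genes were lower by the following differences: Fosb -2.74, Egr4 -2.31, Fos -2.31, Egr1 -2.16, Nr4a1 -2.16, Klf4 -1.64, Dusp1 -1.43, Jun -1.38, Csrnp1 -1.06 and Ppp1r15a -0.73. Sterol genes were lower as well, with Insig1 at -1.61, Idi1 -1.43, Msmo1 -1.33, Stard4 -1.28, Mvk -1.05, Dhcr7 -1.02, Mvd -1.02, Fdft1 -0.92, Sqle -0.92, Nsdhl -0.88, Hsd17b7 -0.84, Hmgcs1 -0.81, Fdps -0.69, Tm7sf2 -0.67 and Elovl6 -0.62. The hypoxia targets Adm and P4ha1 stood at -1.41 and -0.92, and Ccn1, 1600014C23Rik, P2ry12, Gm5820, Galntl6 and Gabrd at -1.38, -1.20, -1.10, -1.05, -0.88 and -0.87.

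Higher than at 3 h were the chemokines Ccl12 (3.32), Ccl9 (1.80), Ccl6 (1.78) and Pf4 (0.59), and the interferon genes Rtp4 (1.99), Isg15 (1.98), Gbp3 (1.52), Irgm1 (1.48), Ifitm1 (1.48), Ifi27l2a (1.30) and Ddx58 (0.94). Glial and matrix genes were Aspg (1.63), Timp1 (1.6), Lgals3 (1.51), S1pr3 (1.11), Vim (1.06), Cd44 (1.06), Serpina3n (1.01), Pdpn (0.80), Cntf (0.80) and Angpt1 (0.79). Myeloid and other genes were Cd209f (1.80), Ly6a (1.43), Bcl2a1d (1.40), Cd52 (1.22), S100a4 (1.07), Mal (0.91), Asgr1 (0.90), Cx3cr1 (0.80), Arv1 (0.78) and Atf5 (0.71). Of these 64 genes, 48 were called again with normexp and loess, 32 without a signal filter, and 31 to 50 without 1 array in turn.

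Against P10 12 h, lower at P5 were Atf3 (-1.63), Maff (-1.44), Ccl3 (-1.30), Egr4 (-1.29), Mt2 (-1.26), Kcng1 (-0.98), Hmgcs1 (-0.91), Tubb2b (-0.90), Csf1 (-0.79) and Syt1 (-0.74). Higher at P5 were Clec4n (1.15), Ifi27l2a (1.09), Cd209f (1.03), Arv1 (0.80), Itgav (0.75), Asgr1 (0.71), Mal (0.68) and Pf4 (0.66). Of these 18 genes, 5 were called again with normexp and loess, 0 when the 6 arrays were fitted alone, 0 without a signal filter, and 0 to 12 without 1 array in turn.

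Among the naive P2 arrays 1 stood apart, with 71.3% of probes well above background in Cy5, by Dixon's criterion over 6 sets of values. Chance picks about 1 in 20 such sets.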

How the results depend on the processing

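Of 334 genes that the naming rule chose, none of the 204 called at P5 12 h changed sign under the alternatives that tested it, whereas 38 of the 130 not called did in at least 1 of them, with values within 0.25 of 0 on the log2 scale. The call was lost for 42 with normexp and loess, 29 with the dye bias subtracted, 17 without a signal filter, 8 with a filter on probes well above background, and 60, 15 and 46 without replicates 1, 2 and 3. Induced counts were 369 to 574 under the other settings of limma, against 434, and repressed counts 170 to 304, against 211, except for 67 repressed with normexp and loess. The 304 is a count of probes rather than genes. Without 1 array, counts ranged from 263 to 382 induced and 163 to 243 repressed. The t-test of the methods gave 299 and 190 genes uncorrected and 0 and 0 after Benjamini-Hochberg correction. Against 6 h, where 0 genes were called, the replicate block gave 3, slide as a random block 15, and normexp and loess 1. Against 24 h slide as a random block gave 3. Against P10 the count of 227 was 0 without a signal filter, 0 with the 6 arrays alone, 121 with probes well above background, 93 with normexp and loess, and 2 to 433 without 1 array. Numbers there do not pair samples, since the ages lie on different slides (correlations of -0.355, 0.25 and 0.0107), and the replicate block gave 339. Against 3 h the count of 256 was 127 without a signal filter, 418 with the 6 arrays alone, 357 with the replicate block and 118 to 201 without 1 array. The replicate block gave 452 induced and 214 repressed genes and changed no other call among these genes. The contrast P15 minus P2 naive gave 3378 genes over all tested there and 2259 to 3890 under the alternatives. The cause of these shifts was not tested. Signals near background limit the ratios of dim genes, and 4 induced genes were not well above background on any naive array.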

Other observations

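Tubulins, the subunits of microtubules, were read as a family after Tubb3 was seen among the most repressed genes. Of 19 tested, 16 had estimates below 0, 8 were repressed and 2 were induced at P5 12 h. The shares over all genes were 1.72% repressed and 3.55% induced. Tubb5 and Tuba1a, abundant in growing neurons, stood at -0.88 and -0.87, and Tuba4a, Tuba1b, Tubb4b, Tubb2b and Tubb1 at -0.75 to -0.61. The induced members were Tubb6 at 1.65 and Tuba1c at 1.48. With normexp and loess 4 were repressed and 2 induced, and without replicate 3 the counts were 5 and 2. Probes of these close copies may read each other.

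Outside the lists 295 induced and 161 repressed genes remained. Among the most induced were Gpr84, a receptor for medium-chain fatty acids on myeloid cells (log2 3.03 ± 0.38, SE, limma adjusted p = 3.41e-05), Bcl3, a nuclear relative of the NF-kB inhibitors (2.98 ± 0.50, adjusted p = 0.000523), Serpina3f, a serine protease inhibitor from a cluster of close copies (2.96 ± 0.26, adjusted p = 8.68e-07), and Cyp1b1, a cytochrome P450 (2.05 ± 0.22, adjusted p = 9.59e-06). Among the most repressed were Slc2a6, a sugar transporter (-0.92 ± 0.09, adjusted p = 1.61e-06), Mas1, a G protein-coupled receptor (-0.93 ± 0.15, adjusted p = 0.000485), and Cntn5, a neuronal adhesion molecule (-0.86 ± 0.17, adjusted p = 0.00213).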
